A study of Mus musculus with 12 samples.

Results

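The genes described here are 39 regulators of histone acetylation and methylation that lie outside the BRPF complexes, out of 27179 gene IDs counted in each library. They were chosen as a list by name, though with earlier results of these data known. The list holds 6 acetyltransferases, 10 zinc-dependent deacetylases, 2 sirtuins, 4 bromodomain readers, 9 methyltransferases, 5 demethylases and 3 remodellers of the CHD family. All 39 were found in the count tables. Brpf1 encodes a scaffold of the MOZ/MORF acetyltransferase complex, and the study asked what its knockdown does to hippocampal gene expression.

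The RNA came from 4 groups of 3 libraries, all from C57BL/6 mice. The neurons scramble and neurons shBrpf1 groups were primary hippocampal cultures that received AAV2-scramble-GFP or AAV2-shBrpf1-GFP on day 3 in vitro. Their labels give the stage as embryonic day 18 to 19, whereas the growth protocol gives a day several days earlier. The study's methods give a range that overlaps that of the labels and lies after the day in the growth protocol. The source name calls the cells neural progenitors. The sources thus leave the embryo age of the cultures unsettled. The study's methods place experiments on cultured neurons at days 14 to 15 in vitro. The CA1 scramble and CA1 shBrpf1 groups were hippocampal CA1 tissue of 8-week-old mice injected with either virus at 4 weeks. Every group thus carried a GFP virus, and no uninfected sample was among them. According to the labels the viruses went into the left and right CA1, so side and virus cannot be told apart in CA1. The labels number the replicates but do not say which came from separate cultures or mice, so the p-values measure only the spread between these libraries.

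Acetyltransferases add acetyl groups to histone lysines, deacetylases and sirtuins remove them, and bromodomain proteins bind them. Methyltransferases and demethylases write and erase methyl groups whose effect depends on the lysine: methylation of H3K4 and H3K36 marks active or transcribed genes, and that of H3K27 and H3K9 is linked to silencing. Many genes of both kinds are known causes of intellectual disability syndromes in humans. The deacetylase Hdac6 and the sirtuin Sirt2 act largely on tubulin in the cytoplasm.

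Library depth was 18330618 to 30275304 counts. In the CA1 tables all 972 gene IDs placed on chromosome 13 were at 0 in all 6 libraries, among them 392 with at least 100 counts in every neuron library. Brd9, which encodes a bromodomain subunit of a BAF remodelling complex, is the single one of the 39 genes on that chromosome, so its 0 in CA1 is a property of the tables and says nothing of its expression there. All 110 IDs on the Y chromosome were at 0 in CA1 as well, and Xist, the RNA of the inactive X, was at 0.39 to 0.97 CPM (counts scaled to library size, with edgeR's TMM factors) in CA1 numbers 1 and 2 and at 787 and 791 CPM in number 3 of the scramble and shBrpf1 groups. In numbers 1, 2 and 3 of the cultures Xist was at 208, 567 and 796 CPM under scramble and at 187, 642 and 971 CPM under shBrpf1. The Y-linked Ddx3y was at 69.9, 31.5 and 16.5 CPM and at 57.4, 32.7 and 14.9 CPM there. The X-linked genes Hdac6, Hdac8, Kdm5c and Kdm6a are read with these values in mind. Among defining markers, the summed level of 9 neuron genes was 2934 to 7691 CPM in the cultures and 8860 to 12419 CPM in CA1. The cultures also held 423 to 1312 CPM of 10 progenitor and cell cycle genes and 4736 to 9294 CPM of 8 astrocyte genes. CA1 had 5334 to 12144 CPM of 7 oligodendrocyte genes against 73.2 to 1026 CPM in the cultures, and 241 to 479 CPM of 8 microglia genes against 1.4 to 16.1 CPM. In such bulk RNA, fewer cells of a type and less RNA per cell cannot be told apart.

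The short hairpin is shown because it defines the shBrpf1 groups. Its sense strand, 21 bases written 5′ to 3′ in the study's primer table, has no mismatch to Brpf1 on chromosome 6:
shBrpf1 sense strand: ggcttaccgctacttgaactt
Against 362 annotated transcripts of the 39 genes, on both strands, the closest match was in Hdac4, with 5 mismatches, and 0 of the 39 genes had a match with 3 or fewer. Brpf1 itself was at 23.4, 52.8 and 38.5 CPM in neurons scramble and at 27.1, 49.6 and 32.4 CPM in neurons shBrpf1, groups that overlapped, with a log2 fold change of -0.06 ± 0.36 (SE; edgeR, adjusted p = 1.0). In CA1 it was at 40.4, 46.4 and 35.98 CPM under scramble and at 28, 37.3 and 28.5 CPM under shBrpf1. These groups overlapped too, and the fitted difference was -0.38 ± 0.18 on the log2 scale (edgeR, adjusted p = 0.93). The labels do not say whether equal numbers in CA1 are the sides of 1 mouse, though the study speaks of pairs and Xist matched by number. Within numbers 1, 2 and 3 the log2 difference of Brpf1 was -0.51, -0.31 and -0.32, lower under shBrpf1 each time, and with the number as a block the fitted value was -0.38 ± 0.15 (edgeR, adjusted p = 0.86). The target's mRNA therefore did not pass the test in these libraries in either experiment. By RT-qPCR, an unlike assay, the study reported lower Brpf1 mRNA under shBrpf1 in cultures and in the hippocampus of injected mice. In what follows shBrpf1 means the libraries labelled so.

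The levels of the 39 genes per kilobase spanned a wide range. RPKM, computed here from the counts and the deposited gene lengths, had a median over the genes of 15.9 in neurons scramble, 15.8 in neurons shBrpf1, 9.5 in CA1 scramble and 10.4 in CA1 shBrpf1. The sirtuin Sirt2 was highest in the cultures, at 104 ± 53.9 RPKM under scramble (SD, n = 3), followed by Chd3, an ATPase of the NuRD deacetylase complex, at 79.0 ± 37.8 RPKM, which did not differ from it beyond their spread. In CA1 scramble the same 2 genes changed places, with Chd3 at 110 ± 8.3 RPKM and Sirt2 at 93.7 ± 14.1 RPKM, again within their spread. Sirt1, the nuclear sirtuin, was the lowest in neurons scramble at 3.0 ± 0.82 RPKM. The lowest gene with counts in CA1 scramble was Ezh2, at 1.9 ± 0.68 RPKM.

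Within the role groups, one gene usually led in all 4 groups of libraries. Among the acetyltransferases it was Kat2a, the GCN5 enzyme of SAGA-type complexes, at 24.8 ± 7.7 RPKM in neurons scramble and 20.8 ± 1.3 RPKM in CA1 scramble. Hdac5, a class IIa deacetylase that shuttles between nucleus and cytoplasm, stood at 38.1 ± 5.1 and 52.4 ± 7.7 RPKM. Brd2, a BET reader of acetylated histones, stood at 54.8 ± 10.3 and 40.7 ± 2.4 RPKM. Ehmt2, the H3K9 methyltransferase G9a, was level between the experiments, at 54.1 ± 5.3 and 55.8 ± 5.5 RPKM. The H3K4 methyltransferases were all low per kilobase, led by Setd1a at 12.3 ± 1.4 and 10.5 ± 1.4 RPKM. In class I the lead passed from Hdac3, the deacetylase of the NCoR and SMRT corepressors, at 47.2 ± 6.7 RPKM in neurons scramble, to Hdac2 at 41.2 ± 2.9 RPKM in CA1 scramble.

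**Figure D1:**
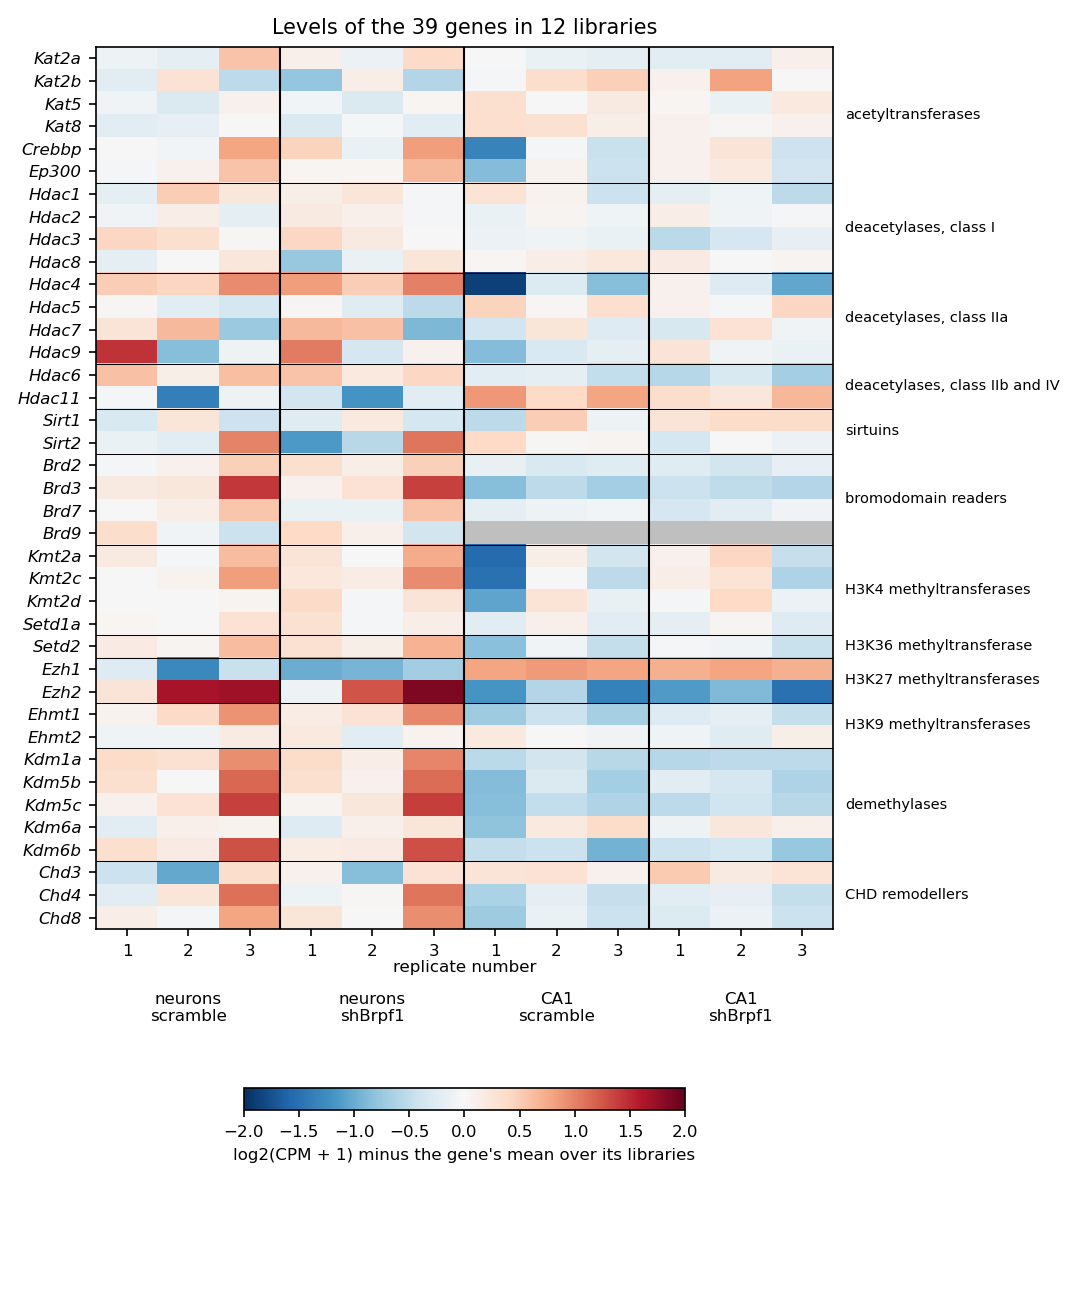
Colour gives log2(CPM + 1) of each of the 39 genes in each of 12 libraries minus that gene's mean over its libraries, with genes in rows by role and libraries in columns by group and replicate number. Brd9 is grey in CA1, where its chromosome is listed at 0. Number 3 of both culture groups is red for most genes, Ezh2 is high in the cultures and Ezh1 in CA1, and CA1 scramble number 1 is blue for Kmt2a, Kmt2c, Crebbp and Hdac4.

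The first comparison, of shBrpf1 with scramble in the cultured neurons, found no member that passed the test. All 39 genes were tested, and 0 had an adjusted p under 0.05, where the share of all 16066 tested genes called in either direction was 0% as well. At an unadjusted p under 0.05 the count was again 0 of 39, with edgeR as with DESeq2 and limma-voom, against 0.0747% of all genes with edgeR. In none of the 39 did the 3 shBrpf1 libraries lie all above or all below the 3 scramble libraries, against 1.61% of all genes. The log2 fold changes ran from -0.26 (Ezh1) to 0.19 (Kmt2d), with a median of 0.003 beside -0.007 over all tested genes, and 20 were above 0 and 19 below. This tally rested on single libraries: 29 were above 0 and 10 below without shBrpf1 number 2, and 12 above and 27 below without shBrpf1 number 3.

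The Ezh1 values show how the cultures varied. This H3K27 methyltransferase was at 41.2, 19.6 and 36.02 CPM in neurons scramble and at 24.4, 25.6 and 30.4 CPM in neurons shBrpf1. The shBrpf1 values lay within the range of the scramble values, and the log2 fold change was -0.26 ± 0.30 (SE; edgeR, adjusted p = 1.0). Kmt2d, one of the MLL-type H3K4 methyltransferases that act at enhancers, was at 136, 136 and 140 CPM under scramble and at 176, 130 and 161 CPM under shBrpf1. Here 2 of 3 shBrpf1 libraries were above all scramble libraries, and the log2 fold change was 0.19 ± 0.20 (edgeR, adjusted p = 1.0), with the smallest p of the 39.

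The standard errors bound what could have been seen. In this fit, which had no pairing term, they ran from 0.19 to 0.65 with a median of 0.30. A change as small as those fitted was thus not detectable at this spread. When the number was entered as a block, so that shBrpf1 was set against scramble within each number, the median standard error was 0.11. The block called 0 of 39 genes at an unadjusted p under 0.05, against 4.9% of all genes in that fit, and the fold changes then ran from -0.42 (Sirt2) to 0.21 (Chd3). Sirt2 had 141, 132 and 310 CPM under scramble and 69.2, 105 and 327 CPM under shBrpf1, lower in numbers 1 and 2 and slightly higher in number 3, with a standard error of 0.22 in the block.

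Differences between the numbers of the cultures were wider than those between the viruses, in the members as in most genes. In 33 of 39 genes the range of the number means on the log2 scale was larger than any difference between shBrpf1 and scramble within a number, against 77.4% of all genes. Both libraries of number 3 lay above the other 4 in 22 of 39 genes and below them in 5, where the shares of all genes were 23% and 22.8%. For number 2 the counts were 3 above and 14 below against 20.9% and 21.8% of all genes, and for number 1 they were 4 and 7 against 16.8% and 17.5%. These are descriptions of 3 numbers, with no test.

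The genes high in number 3 included demethylases, remodellers and readers. Kdm5c, an X-linked H3K4 demethylase whose loss causes intellectual disability in humans, was at 97.9, 113 and 241 CPM in neurons scramble and at 96.6, 109 and 244 CPM in neurons shBrpf1. Kdm6b, an H3K27 demethylase, was at 72.6, 65.2 and 141 CPM and at 63.9, 64.7 and 143 CPM. Number 3 was about as high under both viruses for each of the 2. Brd3, another BET reader, was at 83.7, 86.7 and 199 CPM under scramble and at 79.0, 91.2 and 193 CPM under shBrpf1. Chd4, the main NuRD ATPase, was at 238, 328 and 598 CPM and at 258, 282 and 585 CPM. The class IIa deacetylase Hdac7 went the other way, at 36.9, 48.7 and 17.9 CPM and at 48.8, 46.4 and 16.03 CPM. Hdac9, of the same class, was instead high in number 1, at 75.9, 14.7 and 25.4 CPM and at 57.6, 21.4 and 29.2 CPM.

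Several marker genes of other cell types differed by number as well. The summed level of the 8 astrocyte genes was not lower in number 3, at 6813 and 7120 CPM against 4736 to 9294 CPM in the other 4 libraries. One of them, Gfap, was at 73.1 and 115 CPM in number 3 of the scramble and shBrpf1 cultures and at 1359 to 3503 CPM in the others. The summed level of 6 oligodendrocyte precursor genes was 3212 and 3159 CPM in number 3 against 556 to 1571 CPM in the others. The 7 oligodendrocyte genes summed to 947 and 1026 CPM against 73.2 to 294 CPM. The ribosomal RNA gene Rn45s took 3.47% of counts in scramble number 3 and 0.0952% in shBrpf1 number 3. Between those 2 libraries the median log2 difference of the members was 0.016. The part of cell makeup or of ribosomal RNA in the order of the members was not tested.

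**Figure D2:**
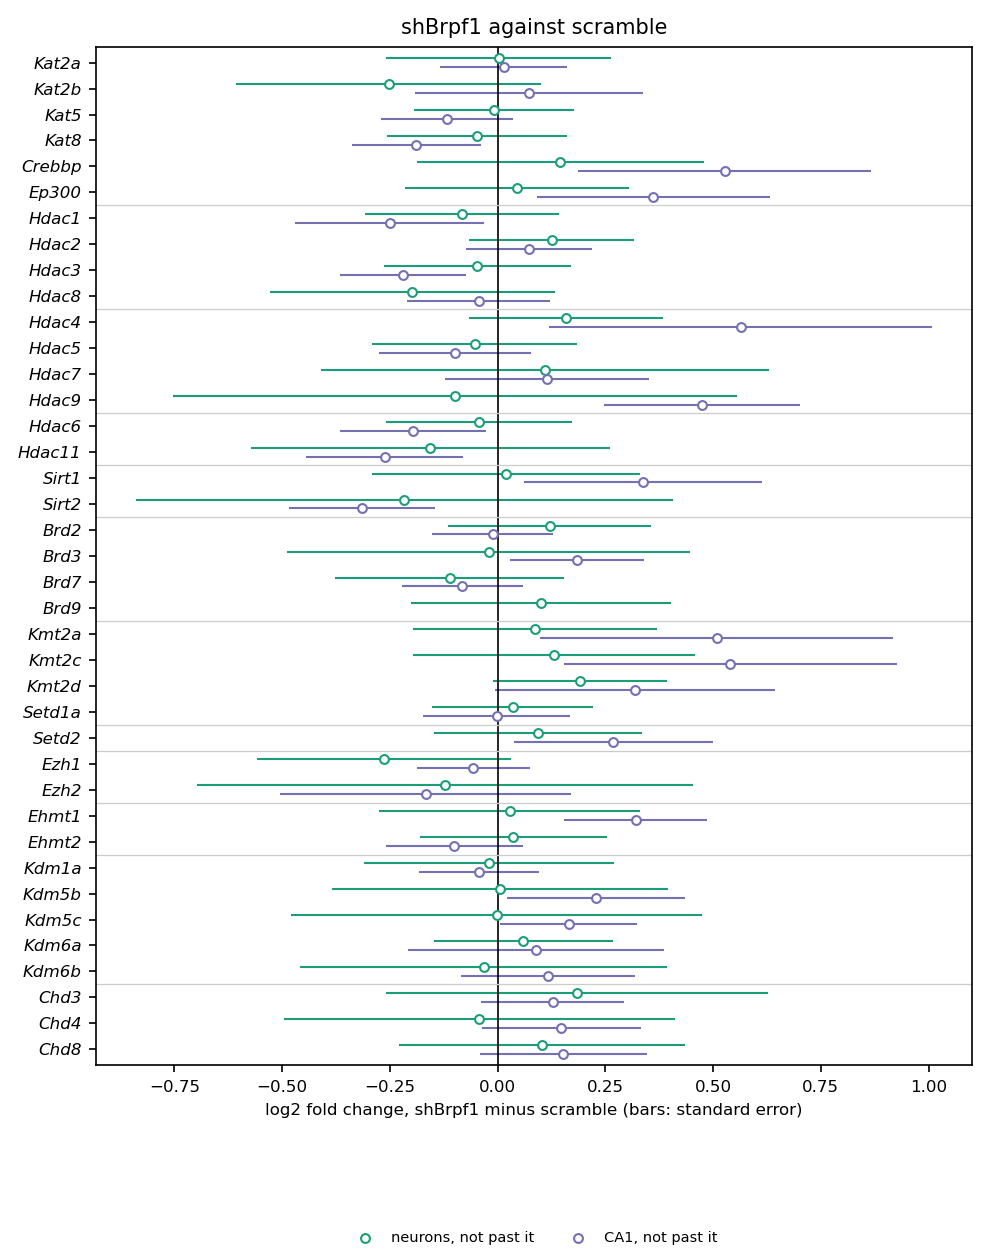
Each point is the log2 fold change of shBrpf1 minus scramble with its standard error, in green for cultured neurons (39 genes) and in purple for CA1 (38 genes, without Brd9). Open symbols mark genes not past an adjusted p of 0.05, which is every gene in both experiments, and the CA1 points of Hdac4, Kmt2c, Crebbp and Kmt2a lie farthest to the right, above 0.5.

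The second comparison, of shBrpf1 with scramble in CA1, also found no member past the test. Of the 39 genes 38 were tested, all but Brd9, and 0 had an adjusted p under 0.05, as in 0% of all 16022 tested genes. At an unadjusted p under 0.05 there were 0 of 38 against 1.15% of all genes with edgeR, and 0 of 38 also with DESeq2 and limma-voom. The 3 shBrpf1 libraries lay all above the scramble libraries in 1 gene (Hdac9) and all below in 3 (Sirt2, Hdac3 and Kat8), against 2.66% and 2.69% of all genes. The median log2 fold change was 0.08 beside 0.005 over all genes, with 22 genes above 0 and 16 below. That median was 0.02 without scramble number 1, 0.04 without scramble number 3 and 0.18 without scramble number 2.

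The 4 genes whose groups did not overlap included the lowest fitted value of the 38, that of Sirt2, but none had an adjusted p under 0.05 in edgeR. Hdac9, a class IIa deacetylase, was at 14.6, 22.0 and 24.1 CPM under scramble and at 32.9, 26.0 and 24.8 CPM under shBrpf1. The gap between the groups was under 1 CPM, the log2 fold change was 0.47 ± 0.23 and edgeR gave an unadjusted p of 0.070, the smallest of the 38 (adjusted p = 0.93). Sirt2, a tubulin deacetylase that is abundant in oligodendrocytes, was at 205, 158 and 161 CPM against 121, 154 and 143 CPM, which gave -0.31 ± 0.17 (edgeR, adjusted p = 0.93). The 7 oligodendrocyte genes had a median log2 fold change of -0.34 in the same contrast, 0 of 7 past the adjusted p, and their summed level was 8684, 9010 and 12144 CPM under scramble and 5334, 9655 and 7753 CPM under shBrpf1. Their part in the Sirt2 values was not tested.

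Hdac3 was at 72.9, 74.0 and 71.7 CPM under scramble and at 53.9, 62.3 and 70.1 CPM under shBrpf1, with a log2 fold change of -0.22 ± 0.15 (edgeR, adjusted p = 0.93). Kat8, the MOF enzyme that acetylates H4K16, was at 20.7, 20.2 and 17.7 CPM and at 17.2, 16.6 and 17.2 CPM, which gave -0.19 ± 0.15 (edgeR, adjusted p = 0.93). The scramble libraries were tight for Hdac3 and the shBrpf1 libraries were tight for Kat8, and in both genes the nearest libraries of the groups were within 2 CPM.

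The largest fitted changes in CA1 were in Hdac4, Kmt2c, Crebbp and Kmt2a, and all 4 genes were lowest in scramble number 1. Kmt2a, the MLL1 H3K4 methyltransferase that is needed for memory formation in mice, was at 48.3, 156 and 111 CPM under scramble and at 151, 191 and 103 CPM under shBrpf1, with a fitted log2 difference of 0.51 ± 0.41. Crebbp, the acetyltransferase CBP that is mutated in Rubinstein-Taybi syndrome in humans, was at 19.0, 48.5 and 36.3 CPM and at 52.3, 59.4 and 36.9 CPM, which gave 0.53 ± 0.34. Hdac4, a class IIa deacetylase linked to synaptic plasticity, was at 7.0, 23.1 and 15.2 CPM and at 30.02, 23.4 and 13.2 CPM, which gave 0.56 ± 0.44. In each of the 3 genes the groups overlapped, and the fitted value moved widely when 1 library was left out: from 0.16 to 0.93 for Kmt2a, from 0.23 to 0.87 for Crebbp and from 0.23 to 1.03 for Hdac4. Kmt2c, the MLL3 relative of Kmt2d, went from 0.23 to 0.94 about a value of 0.54 ± 0.39. Scramble number 1 was the lowest of the 6 CA1 libraries in 19 of 38 genes, where it was the lowest in 30.9% of all genes, and scramble number 2 was the lowest in 0. Scramble number 1 also had the highest summed level of 4 ependymal and choroid plexus genes, at 4907 CPM against 43.9 to 3166 CPM in the other 5 libraries, and the highest share of counts in mitochondrial coding genes, at 9.83% against 6.31% to 7.62%. The ependymal and choroid genes had a median log2 fold change of -0.82 in this contrast, with 0 of 4 past the adjusted p. The part of either in the members' values was not tested.

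Fold change went with length across the 38 genes in CA1, with Pearson's r = 0.73 and Spearman's rho = 0.75 across genes, which share the same 6 libraries and are not independent replicates. The 12 genes with a deposited length of at least 6000 bases were all above 0, with a median of 0.25, while the 26 shorter genes had a median of -0.04 and 10 above 0. After each library's trend with gene length was removed, 12 of 38 genes were above 0 in place of 22 and the median turned to -0.06. Without scramble number 1 the long genes had a median of 0.13 and were still all above 0. Leaving out scramble number 2 brought 6 of 38 genes to an unadjusted p under 0.05 in edgeR, all higher under shBrpf1. They were Sirt1, Ep300, Crebbp, Kmt2c, Setd2 and Ehmt1, none with an adjusted p under 0.05. In that fit 871 of all 15855 tested genes were higher and 519 lower at an unadjusted p under 0.05. Leaving out scramble number 3 brought 1 member, Hdac9, beside 88 higher and 70 lower of all 15861 genes. Over 60 other chromatin regulators rho was 0.73 in CA1. In the cultures the members had r = 0.56 and rho = 0.59, while rho over the same 60 other regulators was 0.08. Whether RNA quality differed between the libraries was not tested.

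**Figure D3:**
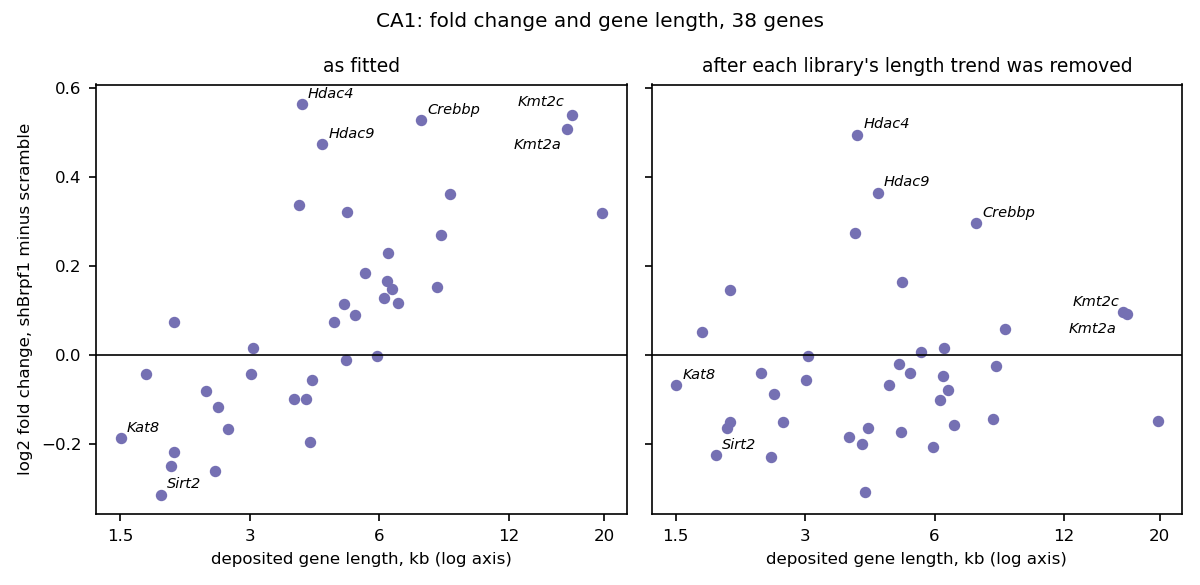
Each point is 1 of 38 genes in CA1, with the deposited gene length in kb on a log axis and the log2 fold change of shBrpf1 minus scramble on the vertical axis, as fitted on the left and after removal of each library's length trend on the right. On the left the long genes sit above 0 and most short genes below it. On the right the rise with length is small (Pearson's r = 0.14, Spearman's rho = 0.22), after a removal that flattens it by design.

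The difference of the knockdown effect between CA1 and the cultures was tested as an interaction in the fit of all 12 libraries. At an adjusted p under 0.05 the count was 0 of the 39 genes, as in 0% of all 17254 tested genes, and 0 of 39 also passed an unadjusted p under 0.05 against 0.336% of all genes. Without Brd9 the differences ran from -0.18 (Hdac3) to 0.56 (Hdac9), with a median standard error of 0.40.

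The third comparison set CA1 tissue against the cultures, separately for the 3 scramble libraries of each and for the 3 shBrpf1 libraries of each, which share no library. Age, culture, virus route and cell makeup differ together between the 2 experiments and cannot be told apart. Under scramble 2 of the 39 genes were higher in CA1 at an adjusted p under 0.05 with edgeR and 11 were lower, where 11.1% of all 17254 tested genes were higher and 15.5% lower. Without the genes of chromosome 13, which removes Brd9, the counts were 2 higher and 10 lower of 38, beside 11% and 11.9% of all genes. The higher genes were Ezh1 and Hdac11, and the lower genes were Ezh2, Hdac4, Brd3, Kdm5c, Kdm6b, Kdm5b, Ehmt1, Kdm1a, Hdac6 and Setd2. The median log2 fold change of the genes other than Brd9 was -0.38, and that of all genes was -0.05, or -0.02 without chromosome 13. Under shBrpf1 1 gene was higher (Ezh1) and 8 were lower besides Brd9, beside 10.1% and 13.2% of all genes. Besides Brd9, 8 genes were called in both contrasts, and the share of all genes called in both was not counted. The contrasts came from 1 fit, and deviations of same-numbered scramble and shBrpf1 cultures correlated at 0.609, 0.891 and 0.85. The 2 contrasts are therefore not independent. With chromosome 13 left out, 7 remained lower of 38, since Kdm5c then had an adjusted p of 0.050 in edgeR, beside 9.57% of all genes lower and 10% higher.

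**Figure D4:**
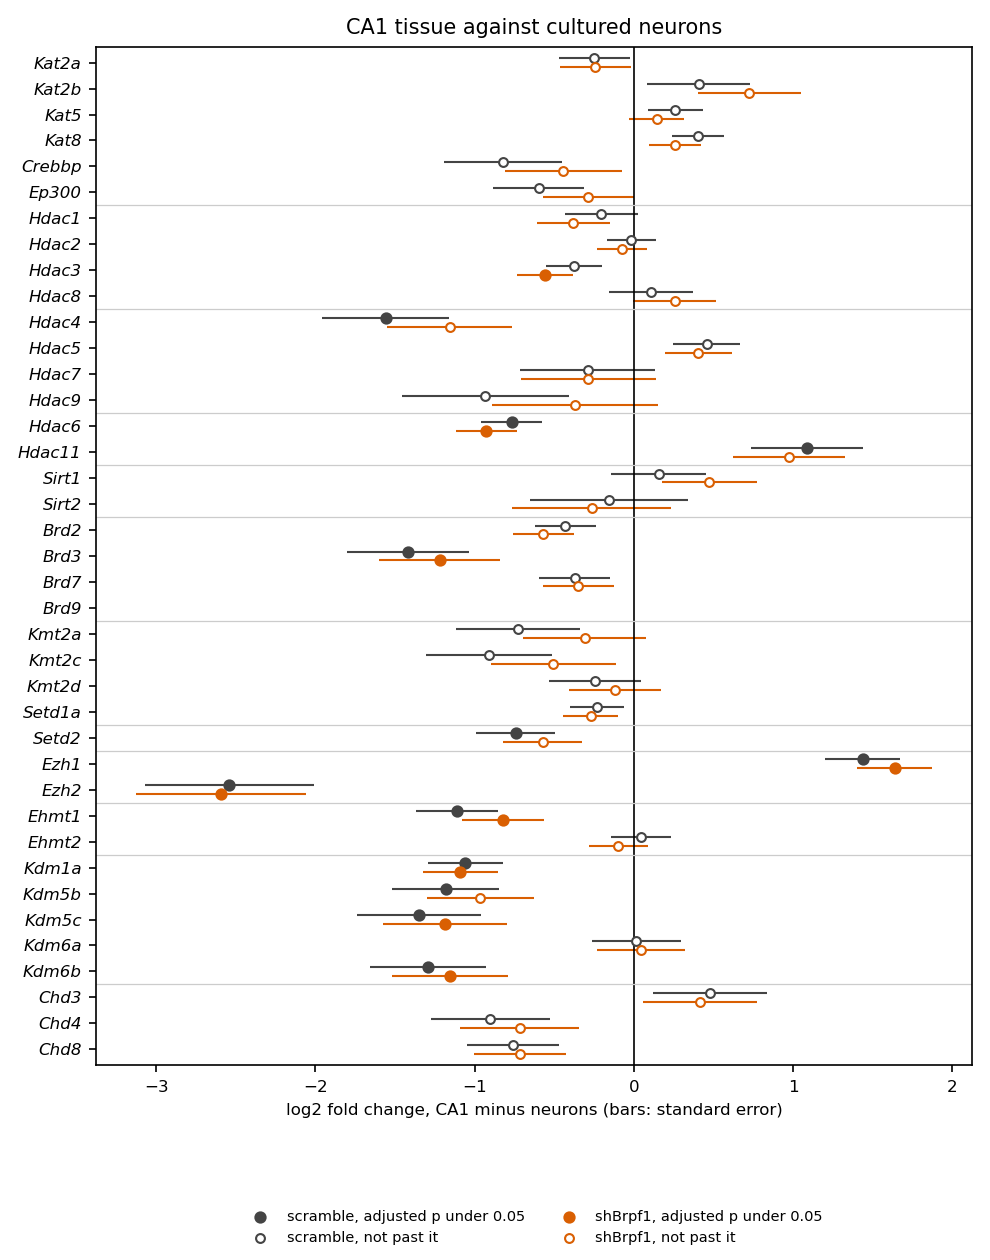
Each point is the log2 fold change of CA1 minus neurons with its standard error, in grey for the scramble libraries and in orange for the shBrpf1 libraries, with filled symbols past an adjusted p of 0.05 and no point for Brd9. Ezh1 and Hdac11 lie to the right at 1.0 to 1.6, Ezh2 lies at -2.5 and -2.6, and 4 of 5 demethylases lie near -1.

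The H3K27 methyltransferases Ezh1 and Ezh2 went opposite ways. Both are catalytic subunits of the Polycomb complex PRC2, Ezh2 being the form of dividing cells and Ezh1 the form that prevails in postmitotic tissue. Ezh1 was at 86.1, 89.9 and 86.2 CPM in CA1 scramble and at 81.8, 86.4 and 81.9 CPM in CA1 shBrpf1, far above the cultures, where the highest of the 6 libraries had 41.2 CPM. The log2 fold change from neurons to CA1 was 1.44 ± 0.24 under scramble (edgeR, adjusted p = 0.0010) and 1.64 ± 0.24 under shBrpf1 (adjusted p = 0.00043). The CA1 libraries of Ezh1 agreed within a few percent, with an SD of 2.2 CPM under scramble against 11.2 CPM in the cultures.

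Ezh2 was at 13.6, 37.7 and 38.7 CPM in neurons scramble and at 10.4, 28.4 and 43.7 CPM in neurons shBrpf1. In CA1 it was at 4.4, 7.2 and 3.8 CPM under scramble and at 4.6, 5.7 and 3.4 CPM under shBrpf1, below all 6 culture libraries. The log2 fold change was -2.54 ± 0.53 under scramble (edgeR, adjusted p = 0.0046) and -2.59 ± 0.53 under shBrpf1 (adjusted p = 0.0045). Per kilobase the ratio of Ezh1 to Ezh2 was 0.33 to 1.92 in the cultures and 7.93 to 15.4 in CA1, with no overlap. The proliferation gene Mki67 was at 33.6, 138 and 196 CPM in neurons scramble, in the same order as Ezh2, and at 1.9 to 5.2 CPM in CA1 scramble. Of the 10 progenitor and cell cycle genes 9 were lower in CA1 at an adjusted p under 0.05 under scramble and 7 under shBrpf1. The shares of all genes lower were 15.5% and 13.2%. Of these 10 genes 1, Ccnb1, lies on chromosome 13. The summed level of the 10 genes was 99.3 to 100.4 CPM in CA1 scramble and 104 to 125 CPM in CA1 shBrpf1. Their part in the Ezh2 result was not tested.

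The 250 bases before a RefSeq start of Ezh1 and Ezh2 are shown because these 2 genes of one complex moved in opposite directions. Capitals mark each CCAAT, the letters bound by the factor NF-Y, or ATTGG, which is the same motif on the other strand. The sequences are from RefSeq, build GRCm38.p6, and both genes lie on the reverse strand. The start is the one in the promoter table: for Ezh1 it is the outer end of the annotated gene, but the gene span of Ezh2 reaches farther, so that 240 of the 250 bases of its window lie inside the span of an earlier-starting transcript.
Ezh1, chr11:101226464-101226713: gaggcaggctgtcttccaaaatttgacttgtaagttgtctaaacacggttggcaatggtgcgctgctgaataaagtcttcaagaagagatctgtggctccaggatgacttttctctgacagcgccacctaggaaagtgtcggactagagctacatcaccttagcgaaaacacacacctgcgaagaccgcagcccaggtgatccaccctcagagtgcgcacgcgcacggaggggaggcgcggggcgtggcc
Ezh2, chr6:47595031-47595280: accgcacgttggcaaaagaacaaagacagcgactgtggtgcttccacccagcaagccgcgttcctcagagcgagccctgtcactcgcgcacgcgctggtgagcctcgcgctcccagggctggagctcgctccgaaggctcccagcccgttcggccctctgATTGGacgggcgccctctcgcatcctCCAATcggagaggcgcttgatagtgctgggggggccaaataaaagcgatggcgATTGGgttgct
The Ezh2 window holds 3 matches, which begin 90, 64 and 11 bases before the start, and the Ezh1 window holds 0. Of 32851 promoter windows of this length in the table, 33.8% hold CCAAT on either strand, as do those of 14 of the 35 members with an entry. The Ezh2 window has 23 CpG pairs and the Ezh1 window 14, where the median of all windows is 6 and that of the members' 47 windows is 20. A match is a description of the letters only.

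The deacetylases were divided. Hdac11, the single class IV deacetylase and a gene known from oligodendrocytes and mature brain, was at 125, 49.2 and 120 CPM in neurons scramble and at 235, 170 and 222 CPM in CA1 scramble, without overlap. Its log2 fold change was 1.09 ± 0.35 (edgeR, adjusted p = 0.039), but it did not pass under shBrpf1 (0.97 ± 0.35, adjusted p = 0.067), and it kept its call in 2 of 6 fits that left out 1 library, with 0.77 without neurons scramble number 2 (adjusted p = 0.081). Hdac4 was at 40.1, 38.2 and 55.4 CPM in neurons scramble against 7.0, 23.1 and 15.2 CPM in CA1 scramble, which gave -1.56 ± 0.40 (edgeR, adjusted p = 0.014), and under shBrpf1 it missed the threshold at -1.16 ± 0.39 (adjusted p = 0.054). Its relative Hdac5 had a log2 fold change of 0.46 ± 0.21 under scramble (adjusted p = 0.13), so the ratio of Hdac4 to Hdac5 per kilobase was 0.23 to 0.49 in the cultures and 0.03 to 0.17 in CA1.

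The X-linked Hdac6, which removes acetyl groups from tubulin, was at 79.4, 56.7 and 80.1 CPM in neurons scramble and at 44.6, 45.5 and 36.9 CPM in CA1 scramble. Its log2 fold change was -0.77 ± 0.19 (edgeR, adjusted p = 0.012) and -0.93 ± 0.19 under shBrpf1 (adjusted p = 0.0046), and it was called in 11 of the 12 fits over both viruses that left out 1 library. Hdac3 was called under shBrpf1 alone, at -0.56 ± 0.18 (edgeR, adjusted p = 0.039) against -0.38 ± 0.17 under scramble (adjusted p = 0.13). That difference is the interaction of Hdac3, which did not pass. Of the other class I genes, Hdac2 had a log2 fold change of -0.02 ± 0.15 under scramble, and Hdac1 and Hdac8 did not pass either.

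Of the 5 demethylases 4 were lower in CA1 at an adjusted p under 0.05 under scramble and 3 under shBrpf1 (2 without chromosome 13, when Kdm5c missed the threshold). The shares of all genes lower were 15.5% and 13.2% (9.57% under shBrpf1 without chromosome 13). Kdm1a, the LSD1 enzyme that removes mono- and dimethyl groups from H3K4, was at 104, 99.2 and 153 CPM in neurons scramble and at 54.7, 62.1 and 54.0 CPM in CA1 scramble. The groups were well apart, the log2 fold change was -1.06 ± 0.24 (edgeR, adjusted p = 0.0067), and under shBrpf1 it was -1.09 ± 0.24 (adjusted p = 0.0063). Kdm1a, Ezh1 and Ezh2 were the 3 genes other than Brd9 called in all 12 fits that left out 1 library.

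Kdm5c had a log2 fold change of -1.35 ± 0.39 (edgeR, adjusted p = 0.024), from cultures at 97.9, 113 and 241 CPM to CA1 at 51.0, 66.0 and 60.5 CPM. In CA1 the Xist-high number 3 had 60.5 CPM under scramble, between the other libraries, and 63.1 CPM under shBrpf1, the lowest of its group by under 1 CPM. In the cultures Kdm5c rose from number 1 to number 3 under both viruses, as did Xist, while the Y-linked Ddx3y fell. The part of sex makeup in the Kdm5c values was not tested. Kdm5b, the autosomal relative of Kdm5c, had -1.18 ± 0.34 (edgeR, adjusted p = 0.023), though -0.96 ± 0.34 and no call under shBrpf1 (adjusted p = 0.059). Kdm6b had -1.29 ± 0.37 (edgeR, adjusted p = 0.022). All 3 rested in part on number 3 of the neurons scramble libraries: without it Kdm5c stood at -0.84, Kdm5b at -0.77 and Kdm6b at -0.86, with adjusted p of 0.11, 0.10 and 0.097. Their calls were lost as well without CA1 scramble number 1 and without CA1 scramble number 3, though the fold changes stayed at -1.06 or beyond. The X-linked Kdm6a, an H3K27 demethylase that escapes X inactivation, was the exception, at 22.5, 28.4 and 27.9 CPM and at 14.8, 30.5 and 34.4 CPM with a log2 fold change of 0.02 ± 0.28.

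**Figure D5:**
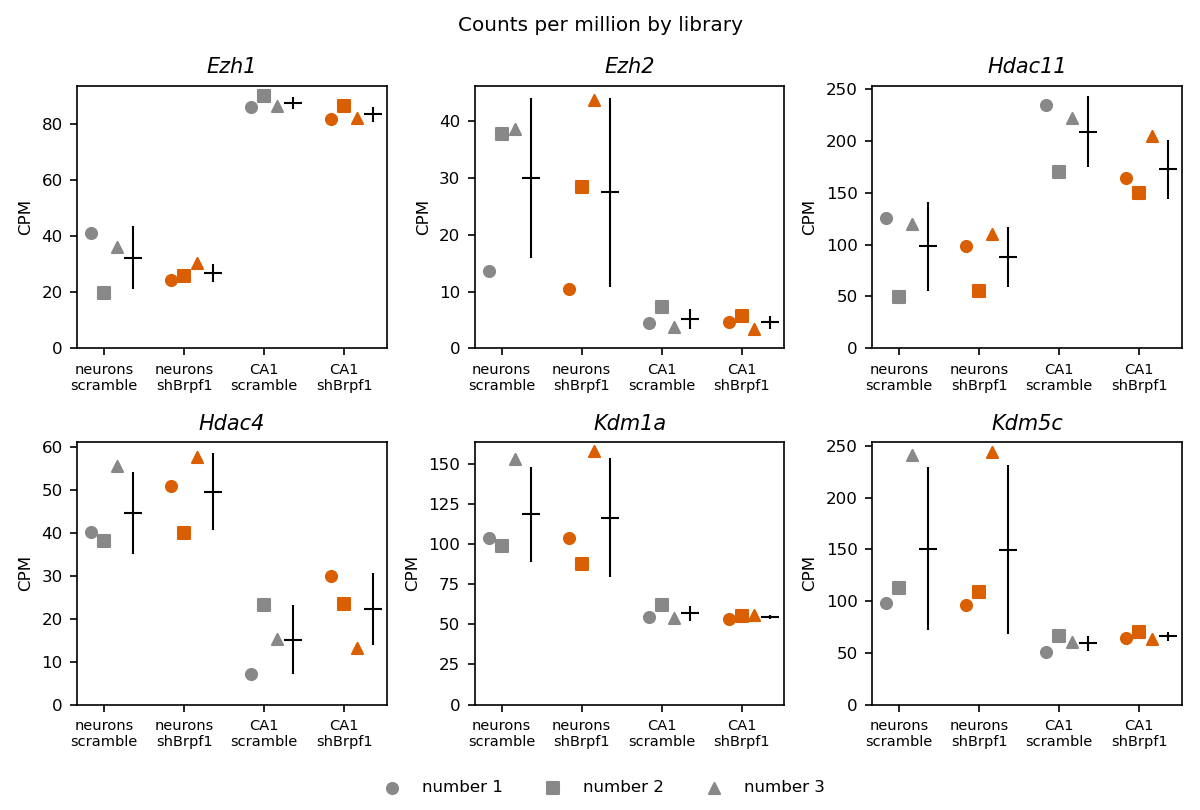
CPM on linear axes from 0 is plotted for Ezh1, Ezh2, Hdac11, Hdac4, Kdm1a and Kdm5c in the 4 groups, with a symbol per replicate number, and with the mean and SD of 3 libraries as a black line beside them. The 6 CA1 libraries of Ezh1 sit between 81.8 and 89.9 CPM, and number 3 of both culture groups stands apart for Kdm5c.

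Of the 4 bromodomain readers 2 were called lower in CA1 under scramble, Brd3 and Brd9 with its chromosome at 0, as was 1 of the 2 H3K9 methyltransferases, the H3K36 enzyme and 0 of the 3 CHD remodellers. The share of all genes lower was 15.5%, or 11.9% without chromosome 13, which leaves Brd3 as the only reader called. Brd3 was at 40.6, 51.5 and 46.0 CPM in CA1 scramble, below the cultures, with a log2 fold change of -1.42 ± 0.38 (edgeR, adjusted p = 0.017) that was -0.89 without neurons scramble number 3 (adjusted p = 0.076) and also lost its call without CA1 scramble number 1 or 3. Brd2 and Brd7 were at -0.43 ± 0.19 and -0.37 ± 0.22 and did not pass. Ehmt1, the GLP partner of G9a that is mutated in Kleefstra syndrome in humans, was at 51.5, 64.2 and 91.8 CPM in neurons scramble and at 29.4, 36.1 and 30.4 CPM in CA1 scramble. Its log2 fold change was -1.11 ± 0.26 (edgeR, adjusted p = 0.0084), while its partner Ehmt2 had 0.04 ± 0.19, and under shBrpf1 Ehmt1 had -0.82 ± 0.26 (adjusted p = 0.037).

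Setd2, the enzyme of H3K36 trimethylation, had a log2 fold change of -0.74 ± 0.25 (edgeR, adjusted p = 0.045) under scramble and -0.57 ± 0.25 under shBrpf1, with no call (adjusted p = 0.12). The call under scramble had the largest p of the calls, was lost in 3 of 6 fits that left out 1 library, and was lost after removal of the length trend, with a fold change of -0.37 (adjusted p = 0.071). The 4 H3K4 methyltransferases were all below 0 with 0 calls, from -0.91 ± 0.40 (Kmt2c) to -0.23 ± 0.17 (Setd1a). Chd4 was at -0.90 ± 0.37 and Chd8, a remodeller mutated in autism in humans, at -0.76 ± 0.29, neither past the threshold (adjusted p = 0.096 and 0.072), while Chd3 was at 0.48 ± 0.36. The ratio of Chd3 to Chd4 per kilobase was 0.91 to 2.5 in the cultures and 2.80 to 4.08 in CA1, without overlap, though neither gene was called. Besides this pair, Ezh1 to Ezh2 and Hdac4 to Hdac5, the ratios of the other pairs of related genes examined overlapped between the experiments. The exception was Brd7 to Brd9, since Brd9 lies on chromosome 13.

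The acetyltransferases and the sirtuins had no calls in either contrast. Crebbp and its close relative Ep300, or p300, were at -0.82 ± 0.37 and -0.60 ± 0.28 under scramble (edgeR, adjusted p = 0.12 and 0.14). Kat8 was at 0.40 ± 0.16 (adjusted p = 0.091), and its 3 CA1 scramble libraries lay above its 3 culture libraries. Kat2b and Kat5, the PCAF and TIP60 enzymes, were at 0.41 ± 0.32 and 0.26 ± 0.17, and Kat2a at -0.25 ± 0.22. Sirt1 and Sirt2 were at 0.16 ± 0.30 and -0.16 ± 0.50. Of the 7 oligodendrocyte genes 6 were higher in CA1 under scramble at an adjusted p under 0.05, beside 11.1% of all genes. The part of oligodendrocytes in the Sirt2 difference was not tested.

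Groups that did not overlap were more frequent than calls. In 15 genes besides Brd9 the 3 CA1 scramble libraries lay below the 3 culture libraries and in 4 they lay above, of 38, where 19% and 20% of all genes without chromosome 13 did so (21.7% and 19.4% with it). The counts under shBrpf1 were also 15 and 4, beside 18.9% and 20.4% (21.7% and 19.7% with it).

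A further 63 histone and chromatin regulators outside the 39 were counted in the same fits. Under scramble 0 were higher and 19 lower in CA1 at an adjusted p under 0.05, beside 11.1% and 15.5% of all genes. Without chromosome 13 (which holds Nsd1, Jarid2 and Kdm1b) they were 0 and 15 of 60, beside 11% and 11.9%. The median log2 fold change of the 63 was -0.50, beside -0.05 over all genes. Under shBrpf1 2 were higher and 13 lower, beside 10.1% and 13.2% of all genes. Among the lower genes outside chromosome 13 the lowest p belonged to Kdm3a, an H3K9 demethylase, at -1.35 ± 0.25 (edgeR, adjusted p = 0.0024), followed by the H3K36 demethylase Kdm2b at -1.23 ± 0.24 (adjusted p = 0.0031), the NuRD subunit Gatad2a at -1.09 ± 0.23 and Wdr5, a core subunit of the MLL-type complexes, at -0.75 ± 0.16. The 2 genes higher under shBrpf1 were Rbbp5, which belongs to the same core as Wdr5, at 0.60 ± 0.17 (edgeR, adjusted p = 0.022), and the demethylase Kdm7a at 1.12 ± 0.31 (adjusted p = 0.023). In the knockdown comparisons 0 of 63 genes in neurons and 0 of 60 in CA1 passed an unadjusted p under 0.05, beside 0.0747% and 1.15% of all genes.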

How the data were processed

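Trimmed reads were, per the labels and the study's methods, aligned with STAR to the mouse genome (release 98 in the methods, mm9 in the labels) and counted per gene with StringTie; further settings are not given in the sources used here. The authors deposited raw whole-number counts and a gene length for each of 27179 gene IDs in 12 libraries. The study called genes with DESeq2. RefSeq GRCm38.p6 named 25275 IDs, and IDs without a name held 1.84% of counts. Genes reaching 10 counts in 3 or more libraries were fitted in edgeR 4.0.16 (R 4.3.3) with TMM, robust quasi-likelihood and Benjamini-Hochberg adjustment over all tested genes, on 6 libraries within an experiment and on 12 between experiments. CPM uses TMM sizes over 12 libraries, and an error after ± is an SE for a fold change and an SD for a level. Alternatives used DESeq2 1.42.0, limma 3.58.1, other scalings and filters, a lowess on length, a replicate block and leaving out each library. The fit was tested on simulated data. Chromosome 13 was left out in an alternative chosen after seeing the data. The 39 members, roles and lists were chosen with earlier results of these data known. Members described in full had the largest changes past the threshold between CA1 and neurons, groups without overlap or an unadjusted p under 0.05 between viruses, the highest RPKM of a role, or a paralog called in the opposite direction. Genes of the culture-number paragraphs, Kmt2a, Crebbp and Hdac4 in CA1, and Sirt2, Ezh1 and Kmt2d in neurons were named after their values were seen. In neurons the deviations of same-numbered libraries, with numbers from the labels, correlated at 0.609, 0.891 and 0.85. The main fit nevertheless had no pairing term, and only the replicate block set shBrpf1 against scramble within a number. In CA1 the correlations were -0.364, 0.226 and 0.34, so the numbers there were not taken as pairs outside the block. The viruses went into left and right CA1, however, and the study speaks of pairs. The shRNA was searched in GENCODE M21 transcripts.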

Additional observations from a re-analysis of the deposited data

How the results depend on the processing

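The count of members called between shBrpf1 and scramble was 0 under every alternative run at an adjusted p under 0.05, in both experiments and in the interaction, the replicate block included, and the block changed no call of a member. It moved the count of all genes at an unadjusted p under 0.05 from 12 to 787 in neurons and from 184 to 237 in CA1. At an unadjusted p, leaving out 1 library gave 0 members in neurons and 0 to 6 in CA1. The 6 came without scramble number 2, where 871 of all 15855 genes were higher and 519 lower. Between CA1 and neurons, leaving out 1 library gave 1 to 2 higher and 5 to 13 lower members under scramble, Brd9 included. Under shBrpf1 the counts were 1 to 2 higher and 4 to 9 lower. The counts of all genes moved too, at 1315 to 1814 higher and 1804 to 2759 lower under scramble. Under shBrpf1 they were 1195 to 1617 higher and 1530 to 2275 lower, of 17100 to 17231 tested genes in these fits. The count of higher members under scramble was 1 with the length trend removed and 1 in a fit of the 6 scramble libraries, but 3 with the DESeq2 Wald test (and 12 lower). Of all genes 2055 of 17254, 1443 of 16488 and 2452 of 17254 were higher in these fits, against 1919 in the main fit. The DESeq2 Wald test called 3155 of all genes lower, against 2678 in the main fit. Under shBrpf1 the count of higher members was 2 with library totals, 2 with the DESeq2 Wald test and 2 in a fit of the 6 shBrpf1 libraries. Of all genes 1759 of 17254, 2227 of 17254 and 1603 of 16521 were higher there, against 1746 in the main fit. The cause of these moves was not tested. The sign of Brpf1 in neurons turned without scramble number 2 (0.25), without shBrpf1 number 1 (0.11) and without shBrpf1 number 3 (0.02), in a range of -0.37 to 0.25. With the block, Brpf1 in CA1 was at -0.38 with an unadjusted p of 0.038 in edgeR (adjusted p = 0.86). None of the 13 members called under scramble changed sign under an alternative. No block is possible between CA1 and neurons, whose libraries share none. Groups of 3, chromosome 13 at 0 in CA1 and the spread between cultures limit what these counts can show.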
